A study of Sus scrofa with 3 samples.

Results

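The genes described here encode subunits of the respiratory chain and of ATP synthase, the 5 complexes of oxidative phosphorylation. Nuclear-encoded members were all mRNA genes whose symbols begin with NDUF plus A, B, C, S or V and a digit, with UQCR, with COX and a digit from 4 to 8, or with ATP5, and the genes SDHA, SDHB, SDHC and SDHD. To these were added the 13 protein genes of mitochondrial DNA, which the deposited values class as ncRNA. The rule found 74 of 34570 genes, of which 61 were nuclear-encoded and 13 mitochondrially encoded. The nuclear-encoded members comprised 34 genes of complex I, 4 of complex II, 2 of complex III, 8 of complex IV and 13 of complex V. The mitochondrially encoded members comprised 7 genes of complex I, 1 of complex III, 3 of complex IV and 2 of complex V.

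RNA-Seq was performed on visceral adipose tissue, taken from the retroperitoneal depot, of male Chinese Wuzhishan miniature pigs that were 6 to 7 months old when obtained and older when sampled, after an acclimation period and the diet. All pigs, controls included, received for 12 weeks the HFC diet, rich in fat and cholesterol, which held 15% lard and 10% egg yolk powder as well as cholesterol at 1.5% and sodium cholate at 0.5%, so no library represents a standard diet. Intact males (IM) had skin incisions only, castrated males (CM) had their testes removed, and castrated males with testosterone replacement (CMT) were given weekly intramuscular testosterone propionate at 10 mg/kg in corn oil. RNA of 4 pigs per group according to the methods, or 4 to 6 according to the sample labels, was pooled in equal amounts, and each pool gave 1 library. Differences between individual pigs were therefore not measured, no p-value is given, and every interval covers counting error only. Reads without molecular identifiers are not independent molecules, so the intervals can be too narrow even for counting error.

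Complex I accepts electrons from NADH, and complex II accepts them from succinate. Both pass them through ubiquinone to complex III, and cytochrome c carries them on to complex IV, which reduces oxygen to water. Complexes I, III and IV pump protons across the inner mitochondrial membrane, and complex V lets them flow back to make ATP. Mitochondrial DNA encodes the hydrophobic cores of complexes I, III, IV and V as parts of long transcripts that are cut into single mRNAs, rRNAs and tRNAs, whereas all other subunits, and the whole of complex II, are encoded in the nucleus and imported. White adipocytes hold few mitochondria in comparison with muscle, liver or brown fat, and use them among other things to supply precursors for lipid synthesis.

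Values are UQRPKM, or reads per kilobase of gene divided by each library's upper quartile in place of its total, so that levels of different genes can be compared per length. Sets of 3 values are given in the order IM, CM and CMT. Recovered reads came to 16611931 for IM, 15561124 for CM and 15106608 for CMT. A member was called upregulated or downregulated if its values differed by a fold of 1.5 or more and neither was below 1 UQRPKM, and a log2 ratio was set beside its exact 95% counting interval. Adiponectin (ADIPOQ), an adipocyte hormone, had 74928 UQRPKM (IM), 69193 (CM) and 63873 (CMT), and 14 of 15 white adipocyte markers were above 0 in every library. CM also held hepatocyte markers, which summed to 10810 UQRPKM against 2568 in IM and 1752 in CMT, of which APOA1 alone made 2539 in IM and 1714 in CMT. Of these 15 hepatocyte markers, 8 were listed at 0 in IM, 8 in CMT and 0 in CM. CMT held skeletal muscle markers, whose 22 genes summed to 8222 UQRPKM against 222 in IM and 202 in CM. TNNT3, CKM, MB and NEB were listed at 0 in all libraries, and these zeros are given as listed and not read as absence. Liver and muscle are rich in mitochondria. The part of either tissue in the values below was not tested, and in bulk tissue a larger number of cells of a type cannot be told apart from more RNA per cell.

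The mitochondrially encoded members stood highest in CM. Their values summed to 636390 UQRPKM (IM), 972220 (CM) and 703171 (CMT), whereas the nuclear-encoded members summed to 105194, 112468 and 104040. The mitochondrially encoded members took 5.23% of all recovered reads in IM (exact 95% counting interval 5.22 to 5.24%), 7.97% in CM (7.96 to 7.99%) and 6.21% in CMT (6.20 to 6.22%). The nuclear-encoded members took 0.802%, 0.847% and 0.837%. These intervals leave out error in the recovery of reads. With COX2 at its RefSeq length the mitochondrial shares would be 5.41%, 8.25% and 6.43%, outside the intervals. Of the 13 mitochondrially encoded members, 13 had their highest value in CM. Of the 57 nuclear-encoded members above 0 in every library, 31 were highest and 7 lowest in CM, where 29.6% of all mRNA genes above 0 in every library were highest and 33.2% lowest.

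**Figure D1:**
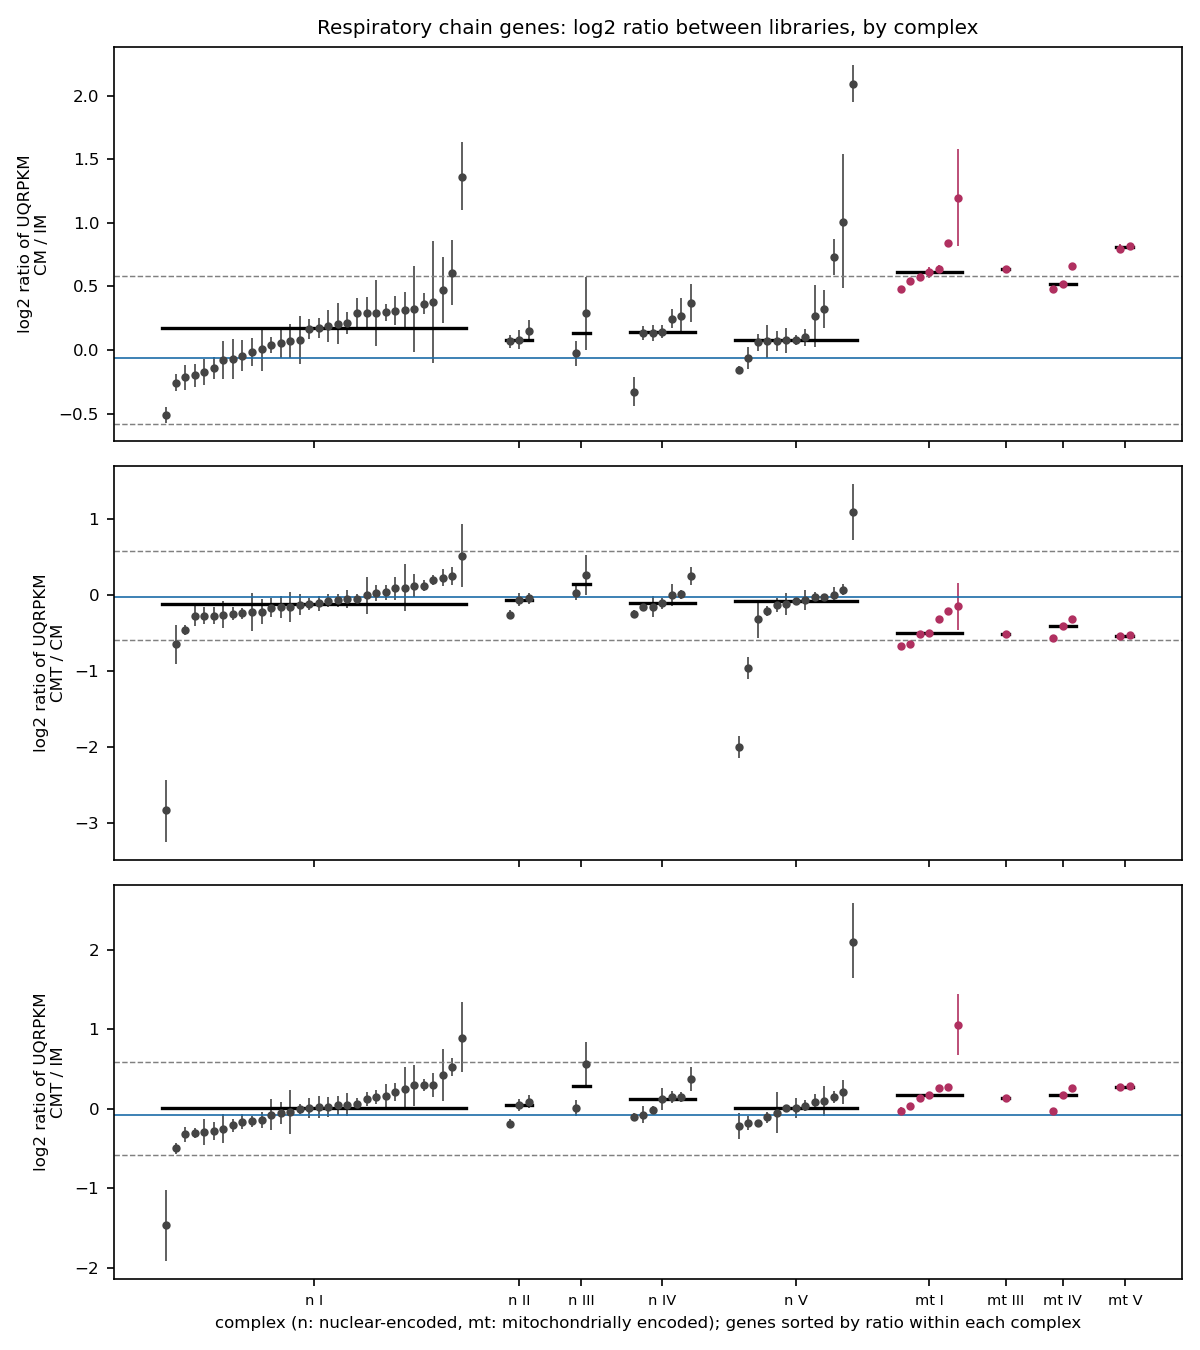
Log2 ratio of UQRPKM for each member for CM to IM (top), CMT to CM (middle) and CMT to IM (bottom), with genes grouped by complex and sorted by ratio; bars are 95% counting intervals, thick black lines are group medians, the blue line is the median of all mRNA genes and dashed lines mark a fold of 1.5. The 13 mitochondrially encoded members (red) lay between 0.48 and 1.20 in the top panel and between −0.67 and −0.14 in the middle panel, while most nuclear-encoded members (grey) lay within the dashed lines.

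CM was compared with IM to see what castration did under the HFC diet. All 13 mitochondrially encoded members were higher in CM. Their log2 ratios had a median of 0.64 and a range from 0.48 to 1.20, and 13 of 13 intervals lay above 0. Of these, 8 were upregulated and 0 downregulated, against 8.38% of 14123 mRNA genes tested that were called higher and 10.4% that were called lower. The median by complex was 0.61 for the 7 genes of complex I, 0.64 for CYTB of complex III, 0.52 for the 3 genes of complex IV and 0.81 for the 2 genes of complex V. The median over all mRNA genes was −0.06.

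The 2 mitochondrially encoded genes of complex V had the highest median of the complexes. ATP6 encodes the subunit that forms the proton channel of ATP synthase, and had 79120 UQRPKM (IM), 139569 (CM) and 96324 (CMT). CM exceeded IM by 0.82 on the log2 scale, with an interval from 0.81 to 0.83. ATP8, a small membrane subunit whose gene overlaps that of ATP6, had 31113 (IM), 54118 (CM) and 37618 (CMT), a log2 ratio of 0.80 in CM versus IM. For both genes IM was lowest and CMT lay between IM and CM. Reads from the overlaps of ATP8 with ATP6, ATP6 with COX3, ND4L with ND4, and ND5 with ND6 cannot be assigned to 1 gene by position alone.

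The 7 ND genes encode the membrane arm of complex I, through which protons are pumped. ND4 had 32410 UQRPKM (IM), 58107 (CM) and 36519 (CMT), and ND1 had 31984, 44516 and 38504. ND3 had 19533, 30335 and 21445, and ND4L had 16765, 25630 and 16434. ND5 had 13434, 19587 and 13757, and ND2 had 12664, 18869 and 15260. CM was highest for each of these, and the log2 ratio in CM versus IM ran from 0.48 for ND1 through 0.54 for ND5, 0.58 for ND2, 0.61 for ND4L and 0.64 for ND3 to 0.84 for ND4. ND4L lay just inside the fold of 1.5 and ND2 just outside it.

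ND6, which lies on the opposite strand from the other protein genes, was by far the lowest, with 109 UQRPKM (IM), 251 (CM) and 227 (CMT) from 86, 188 and 175 reads. CM exceeded IM by 1.20 on the log2 scale, the largest of the 13, with a wide interval from 0.82 to 1.58. ND5, which overlaps it, had 36451 reads in IM. Whether reads were counted by strand is not given in the sources used here, so reads of ND6 and of RNA from the other strand at that place cannot be told apart.

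CYTB encodes cytochrome b, the subunit of complex III that carries electrons from ubiquinol, and had 40434 UQRPKM (IM), 62950 (CM) and 44307 (CMT), a log2 ratio of 0.64 in CM versus IM. In complex IV, COX1 holds the site where oxygen is reduced, COX2 receives electrons from cytochrome c, and COX3 is a structural core subunit. COX3 was the highest of all members, at 170840 (IM), 245307 (CM) and 166994 (CMT). COX1 had 127772, 177829 and 143883, and COX2 had 60211, 95152 and 71900. Log2 ratios in CM versus IM were 0.66 for COX2, 0.52 for COX3 and 0.48 for COX1, of which that of COX2 passed a fold of 1.5.

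**Figure D2:**
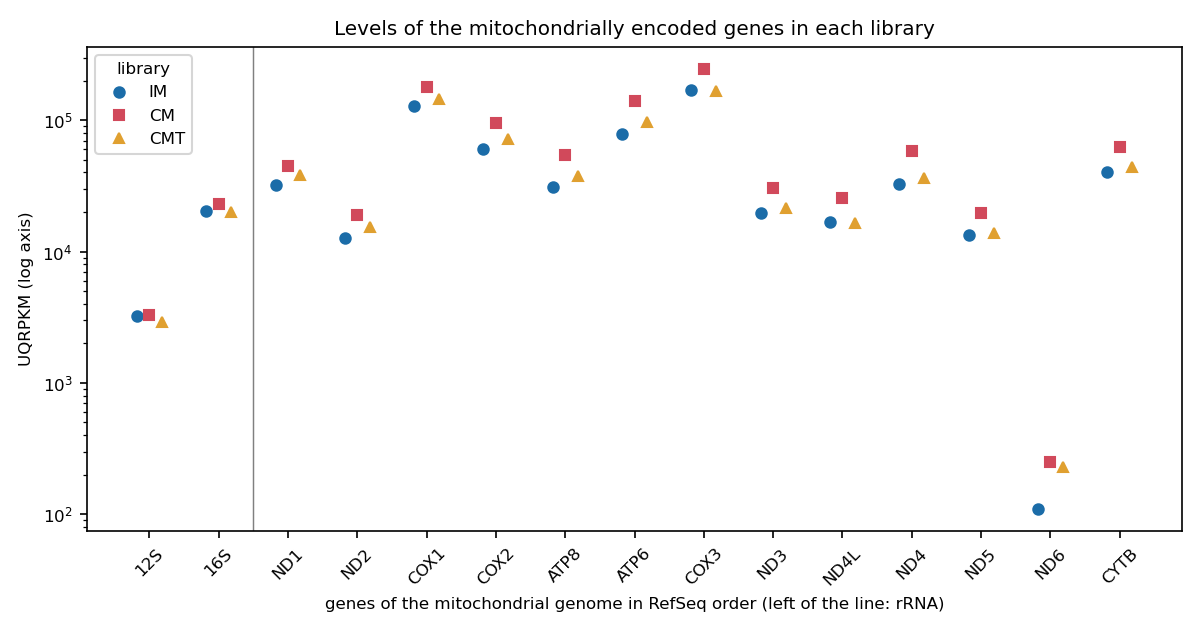
UQRPKM on a log axis of the 2 mitochondrial rRNAs and the 13 mitochondrially encoded members in IM, CM and CMT, ordered along the mitochondrial genome as in RefSeq. CM is above IM and CMT for each of the 13 protein genes, ND6 lies far below the rest at 109 to 251, and the 3 libraries lie close together for the rRNAs.

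The rRNAs of mitochondrial DNA, which come from the same strand as most of its mRNAs, differed less between the libraries. 16S rRNA had 20403 UQRPKM (IM), 22819 (CM) and 19867 (CMT), a log2 ratio of 0.16 in CM versus IM with an interval from 0.14 to 0.18. 12S rRNA had 3244, 3285 and 2923, a log2 ratio of 0.02 with an interval from −0.04 to 0.08. Both ratios lay below the smallest ratio of the 13 protein genes, 0.48. The 18S rRNA of cytosolic ribosomes went the other way, at 130161 (IM), 94694 (CM) and 85202 (CMT). Whether mRNA was selected or rRNA removed before sequencing is not given in the sources used here.

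The nuclear-encoded members were slightly higher in CM by their median. The median ratio of CM to IM was 0.14 on the log2 scale, with 43 of 57 higher and 14 lower. Intervals lay above 0 for 32, below 0 for 8, and included 0 for 17. Of all mRNA genes tested, 15.6% had an interval above 0 and 26.6% one below 0. These shares are not like for like, because intervals narrow with depth and the members stood at higher levels. The median level above 0 in IM was 1211 UQRPKM for nuclear-encoded members and 50.5 for mRNA genes. The same limit holds for the shares of intervals in the other comparisons. By the fold of 1.5, 5 were upregulated and 0 downregulated, and the count upregulated is near the 8.38% of all mRNA genes called higher. Of all mRNA genes, 10.4% were called lower. These shares of calls are not like for like either, because the filter of 1 UQRPKM admits genes with few reads. The bounds of a counting interval typically lay 0.12 from the ratio, so that differences of this size in a single member are at the limit of what the depth resolves. Recovered gene lengths and log2 ratios had a Spearman correlation of −0.17 over the 57 members, and members under 1000 bases had a median of 0.17 (n = 41) against 0.08 for longer ones (n = 16). Over 11869 mRNA genes that correlation was −0.10, and all these genes share the same pair of libraries. Of these mRNA genes, those under 1000 bases had a median of 0.01 (n = 1727). In the longer length classes the medians ran from −0.04 to −0.10.

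Medians of the complexes in CM versus IM were close to each other: 0.17 for complex I, 0.08 for complex II, 0.13 for complex III, 0.14 for complex IV and 0.08 for complex V. In complex IV, 6 of the 7 genes above 0 in all libraries had an interval above 0 and 1 had an interval below 0. In complex II 3 of 3 intervals lay above 0. In complex I 15 of 32 lay above 0 and 6 below, and in complex V 7 of 13 above and 1 below. In complex III UQCRB, a subunit at the quinone site, had a log2 ratio of 0.29 and UQCR10 one of −0.03, which turned positive when the values were scaled by total reads or centred on all mRNA genes.

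Within complex I, the core subunits that carry electrons from NADH to ubiquinone had another median than the other nuclear-encoded members. For the 6 nuclear-encoded core subunits that the naming rule found, the median ratio of CM to IM was −0.16 on the log2 scale, with 2 higher and 4 lower. NDUFV2 was not among the genes found. The other 26, which include NDUFA4 and NDUFA4L2, had a median of 0.21, with 20 higher and 6 lower. NDUFV1, the subunit that binds NADH, had 1821 UQRPKM (IM), 1586 (CM) and 1630 (CMT), and the iron-sulfur subunit NDUFS7 had 1825, 1656 and 1579. For both of these genes IM was highest. NDUFS1 and NDUFS8, which also carry iron-sulfur clusters, had log2 ratios of 0.19 and 0.17. This split was noticed after the values were seen and is given without a test.

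Of the nuclear-encoded members, 6 passed the fold of 1.5 in at least 1 comparison, and 51 of those above 0 in every library passed it in none. The share of all mRNA genes that passed it in at least 1 comparison was not computed, so these counts have no background. Log2 ratios of these 51 reached at most 0.47 for CM to IM, and ran from −0.45 to 0.27 for CMT to CM and from −0.49 to 0.56 for CMT to IM. ATP5G2 showed the largest difference in CM versus IM. It is 1 of 3 genes that encode the c subunit of the rotating ring of ATP synthase, and had 381 UQRPKM (IM), 1627 (CM) and 409 (CMT), from 469, 1908 and 493 reads. CM stood alone, with a log2 ratio of 2.09 against IM (interval 1.95 to 2.24) and CMT at −1.99 against CM (−2.14 to −1.85). The other genes for the same mature protein lay closer together across libraries. ATP5G1 had 1645 (IM), 1577 (CM) and 1450 (CMT), and ATP5G3 had 3491, 3745 and 3249. Since these genes share coding sequence, reads may be split between them, and how the authors treated reads that map to several genes is not given in the sources used here.

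NDUFA6, an accessory subunit of the peripheral arm of complex I, had 126 UQRPKM (IM), 325 (CM) and 45.8 (CMT), from 166, 407 and 59 reads. It was upregulated in CM versus IM, with a log2 ratio of 1.36 (interval 1.10 to 1.63), and downregulated in CMT versus CM, with one of −2.83 (−3.25 to −2.43). NDUFC2, an accessory subunit of the membrane arm, followed the same order at 241, 368 and 235, with log2 ratios of 0.61 and −0.65. ATP5J2, subunit f of the membrane part of ATP synthase, had 1177, 1957 and 1010, with log2 ratios of 0.73 for CM to IM and −0.95 for CMT to CM. For these 3 genes CM was the highest library. NDUFC2 lay just inside the fold of 1.5 in CM versus IM, and NDUFA5, another accessory subunit, just outside it at 0.47.

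ATP5J, coupling factor 6 of the stalk of ATP synthase, had another order. It had 73.7 UQRPKM (IM), 148 (CM) and 317 (CMT), from 48, 92 and 202 reads, and was upregulated in CM against IM (log2 ratio 1.01) and in CMT against both CM (1.09) and IM (2.10). It was the lowest gene of complex V in IM. NDUFA4L2, a hypoxia-induced relative of NDUFA4, was the lowest of all members above 0 in IM and had 47.5 (IM), 61.6 (CM) and 88.4 (CMT). It was upregulated only in CMT versus IM, with a log2 ratio of 0.90 (interval 0.46 to 1.34).

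**Figure D3:**
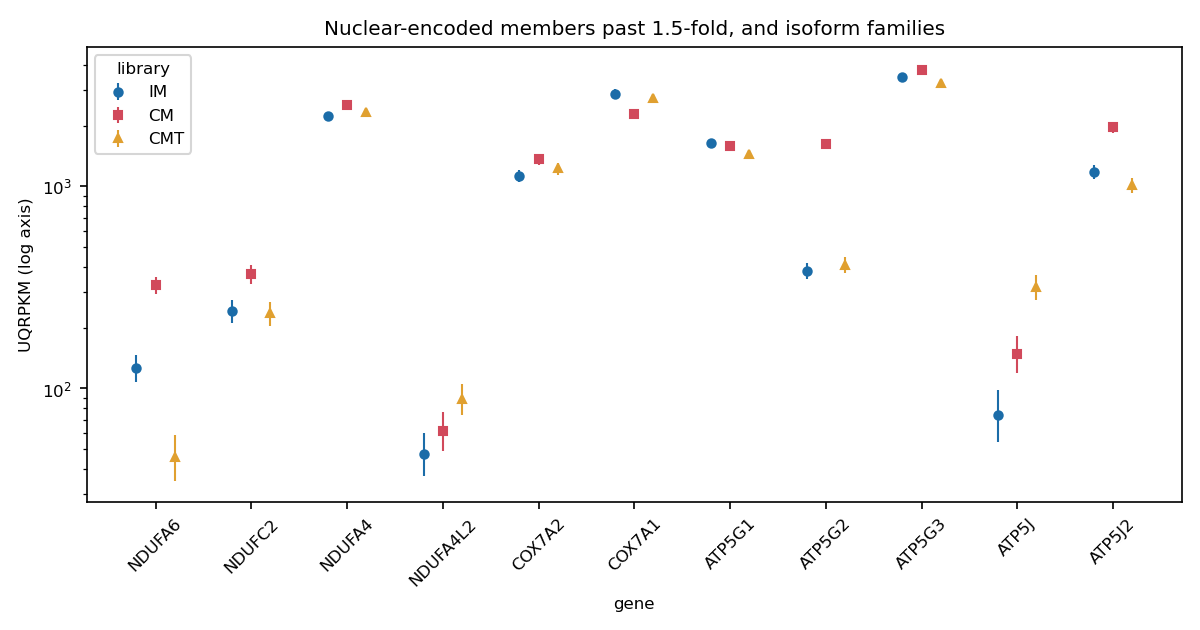
UQRPKM on a log axis in IM, CM and CMT for the nuclear-encoded members past a fold of 1.5 in any comparison and for isoform families; bars are exact 95% counting intervals. ATP5G2, NDUFA6, NDUFC2 and ATP5J2 are highest in CM, ATP5J and NDUFA4L2 in CMT, and ATP5G1, ATP5G3, NDUFA4, COX7A1 and COX7A2 lie within a narrow range.

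CMT was compared with CM to see what testosterone replacement did in castrated pigs. All 13 mitochondrially encoded members were lower in CMT, by a median of −0.51 on the log2 scale and a range from −0.67 for ND4 to −0.14 for ND6. Intervals lay below 0 for 12 and included 0 for ND6, from −0.45 to 0.16. Of the 13, 2 were downregulated and 0 upregulated, against 9.97% of 14098 mRNA genes called lower and 9.53% called higher. These were ND4, at −0.67, and ND4L, at −0.64, and COX3 lay just outside the fold at −0.55. ATP6 was at −0.54, ATP8 at −0.52, ND5 at −0.51, CYTB at −0.51, ND3 at −0.50 and COX2 at −0.40, and the smallest differences after ND6 were those of ND1 at −0.21, ND2 at −0.31 and COX1 at −0.31. The 2 mitochondrial rRNAs were at −0.20 for 16S and −0.17 for 12S.

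The median log2 ratio of the nuclear-encoded members in CMT versus CM was −0.07, against −0.02 for all mRNA genes, with 19 of 57 higher and 38 lower. Intervals lay above 0 for 9, below 0 for 25, and included 0 for 23, where 17.3% and 21.1% of all mRNA genes lay above and below 0. ATP5J was upregulated, and ATP5G2, ATP5J2, NDUFA6 and NDUFC2 were downregulated, against 9.53% and 9.97% of mRNA genes. Medians were −0.11 for complex I, −0.06 for complex II, 0.15 for the 2 genes of complex III, −0.10 for complex IV and −0.07 for complex V. The core subunits of complex I had a median of 0.03 and the other members of complex I one of −0.14. Among genes not called, NDUFB8, an accessory subunit of complex I, had 3547 UQRPKM (IM), 4353 (CM) and 3185 (CMT), a log2 ratio of −0.45.

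In CMT versus IM, which asks whether the treated pigs resembled the intact ones, the median ratio of the mitochondrially encoded members lay nearer to 0 than in the other comparisons. The median log2 ratio was 0.17, with 11 of 13 higher in CMT, and 1, ND6 at 1.05 (interval 0.68 to 1.44), was upregulated. COX3 and ND4L were at −0.03, and both turned positive when the libraries were scaled by total reads on mRNA genes or centred on the median of all mRNA genes, so that 13 of 13 were then higher. The interval of ND4L included 0. Scaling by total reads raised all log2 ratios in this comparison by 0.11. Of the other 12 genes, the largest ratio was 0.28 for ATP6.

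The nuclear-encoded members had a median log2 ratio of 0.02 in CMT versus IM, against −0.08 for all mRNA genes, with 33 of 57 higher and 24 lower. Intervals lay above 0 for 18, below 0 for 17, and included 0 for 22, where 15% and 29.5% of 14151 mRNA genes lay above and below 0. ATP5J and NDUFA4L2 were upregulated and NDUFA6, at −1.46, was downregulated, against 8.81% and 11.9% of mRNA genes. Scaled by total reads or centred, 4 members were called higher and 1 lower, and UQCRB and NDUFA12, with log2 ratios of 0.56 and 0.53 as deposited, were those added. Medians were 0.02 for complex I, 0.04 for complex II, 0.29 for complex III, 0.12 for complex IV and 0.01 for complex V. In complex IV 4 of 7 genes were higher in CMT as deposited and 7 of 7 after scaling by total reads.

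The ratio of mitochondrially to nuclear-encoded level is taken within a library and does not depend on how libraries are scaled to each other. Over all members it was 6.05 (IM), 8.64 (CM) and 6.76 (CMT). In complex I it was 3.14, 4.64 and 3.60, and in complex III, with 1 mitochondrially and 2 nuclear-encoded genes, 12.98, 19.9 and 13.2. In complex IV it was 12.5, 16.7 and 13.1, and in complex V 4.14, 6.73 and 5.22. By these sums CM had the highest ratio in all 4 complexes, and CMT lay between IM and CM in each. The order of the libraries changed in part with medians in place of sums. The ratio of medians was 46.8 (IM), 59.5 (CM) and 66.3 (CMT) in complex V, where CMT was highest, and 15.4, 21.1 and 14.8 in complex I, where CMT lay below IM. The 3 mitochondrially encoded genes of complex IV held 48.4% of the summed level of all members in IM, 47.8% in CM and 47.4% in CMT.

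**Figure D4:**
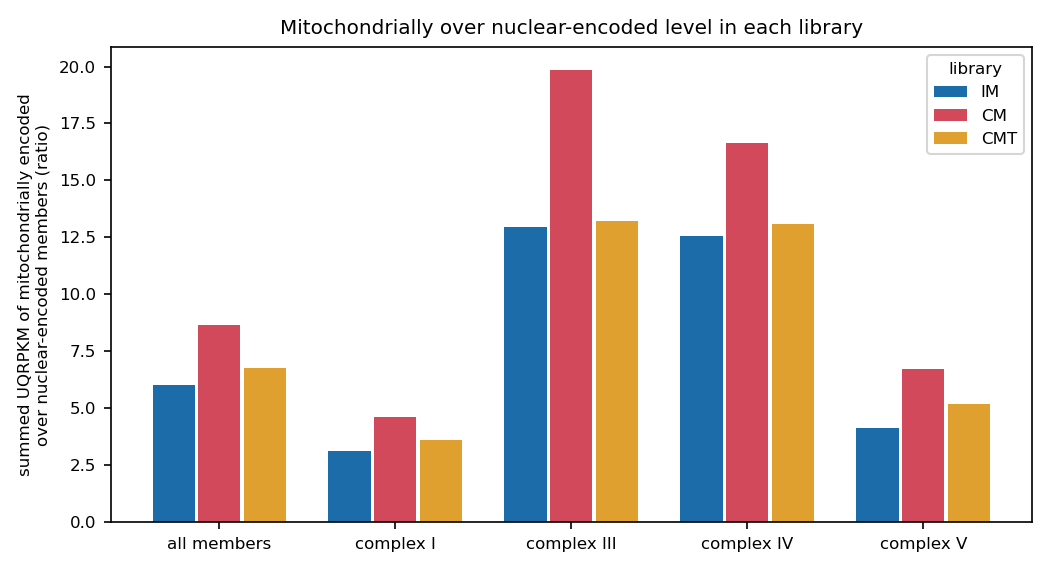
Summed UQRPKM of the mitochondrially encoded members divided by that of the nuclear-encoded members in IM, CM and CMT, over all members and for the 4 complexes with subunits from both genomes. The ratio over all members was 6.05 (IM), 8.64 (CM) and 6.76 (CMT), and by these sums CM is highest in every complex.

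Levels within a complex were far from equal, although its subunits are assembled in fixed numbers. In IM, nuclear-encoded genes above 0 ran from 47.5 UQRPKM for NDUFA4L2 to 8148 for ATP5B, the catalytic beta subunit of ATP synthase, which had 7313 in CM and 7228 in CMT. In complex I, NDUFA13, an accessory subunit also known as GRIM19, was highest at 4737 (IM), 4869 (CM) and 4722 (CMT). In complex II, SDHC, a membrane anchor, had 2821, 2957 and 2480, the iron-sulfur subunit SDHB had 2430, 2573 and 2507, and the other anchor, SDHD, had 1211, 1342 and 1289. These 3 genes thus differed by at most 2.33 times in a library. In complex III, UQCR10 had 2652, 2604 and 2673 and UQCRB had 463, 565 and 682.

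In complex IV, COX5B, a zinc-binding subunit, was highest of the nuclear-encoded genes, at 7904 UQRPKM (IM), 8676 (CM) and 7808 (CMT). COX6A1, the widely expressed form of subunit VIa, had 7299, 8069 and 6813, and was the lowest of the nuclear-encoded genes of the complex in CMT versus CM at −0.24 on the log2 scale. COX6C was lowest in IM, at 869, 1123 and 1128, and had the highest log2 ratio among the nuclear-encoded genes of the complex against IM, 0.37 for CM and 0.38 for CMT. The small subunits COX6B, at 2452, 2912 and 2708, and COX7C, at 6083, 6683 and 6745, were also above their value in IM in both other libraries. Of the measured genes of the complex, COX7A1 alone was lower in CM than in IM.

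The nuclear-encoded genes of complex V other than ATP5G2, ATP5J and ATP5J2 passed the fold of 1.5 in no comparison. In the catalytic head, the alpha subunit ATP5A1 had 4468 UQRPKM (IM), 4722 (CM) and 4496 (CMT), and the epsilon subunit ATP5E, in the central stalk, had 2337, 2439 and 2401. ATP5B was lower in CM than in IM at −0.16 on the log2 scale, with an interval from −0.18 to −0.13, the lowest of the nuclear-encoded genes of the complex. In the peripheral stalk, ATP5F1, subunit b, had 878, 923 and 974, and ATP5H, subunit d, had 2835, 2972 and 2853. In the membrane part, ATP5I, subunit e, had 690, 863 and 801, and ATP5L, subunit g, had 393, 414 and 418. ATP5I had the highest log2 ratio of these genes in CM versus IM, 0.32, with an interval from 0.17 to 0.47. ATP5S, a coupling factor that is not a subunit of the enzyme proper, had 78.0, 93.8 and 75.3.

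**Figure D5:**
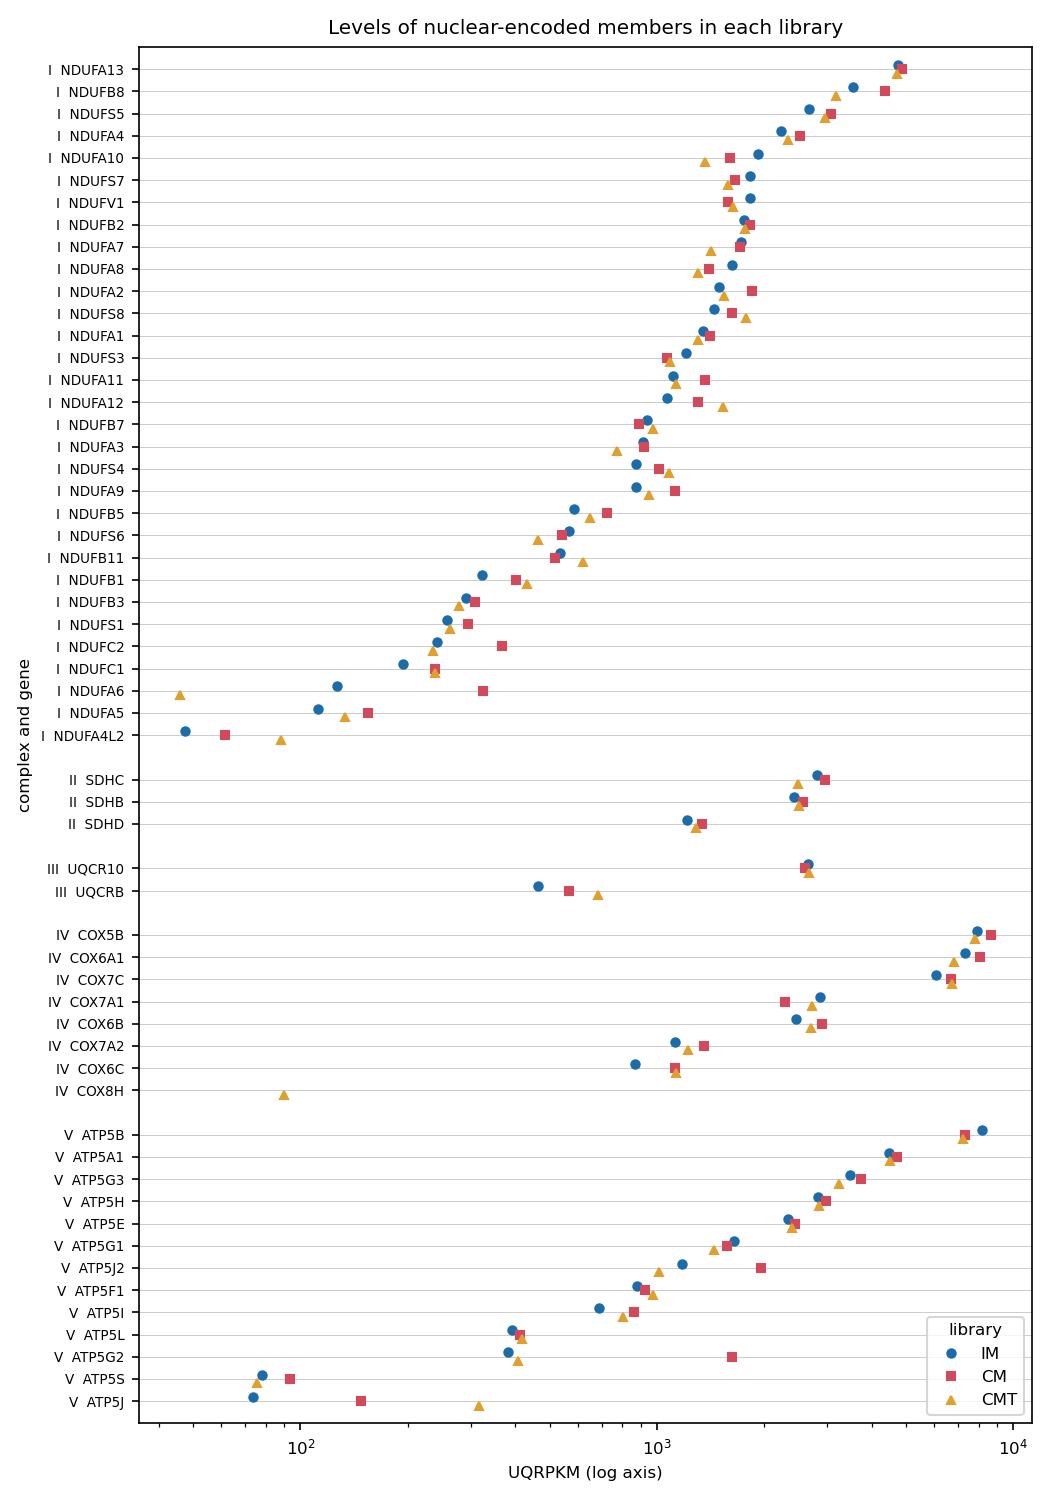
UQRPKM on a log axis of nuclear-encoded members above 0 in at least 1 library, in IM, CM and CMT, sorted by the value in IM within each complex. Levels span from 45.8 to 8676, differences between the libraries are small beside those between genes, and ATP5G2, NDUFA6 and ATP5J have the widest spread between libraries.

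Tissue isoforms differed in direction. COX7A1, the heart and muscle form of subunit VIIa, which is also found in brown fat, had 2867 UQRPKM (IM), 2287 (CM) and 2725 (CMT). Its log2 ratio was −0.33 for CM to IM (interval −0.44 to −0.21) and 0.25 for CMT to CM (0.14 to 0.37). COX7A2, the widely expressed form, had 1126, 1359 and 1226, with log2 ratios of 0.27 and −0.15. COX7A1 was thus above COX7A2 in each library. COX8H, the heart and muscle form of subunit VIII, was listed at 0 in IM and CM and had 90.2 in CMT from 22 reads, in the library that held the skeletal muscle markers. NDUFA4, now assigned to complex IV, had 2235, 2518 and 2334, far above its relative NDUFA4L2.

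SDHA, the flavoprotein that oxidizes succinate, and NDUFB10 and NDUFB4, accessory subunits of complex I, were listed at 0 in all libraries. Because SDHB, SDHC and SDHD had 1211 to 2957 UQRPKM in the same libraries, and every cell with complex II needs SDHA, these zeros are given as listed and not read as absence. In all, 57 nuclear-encoded members were above 0 in every library, 3 were listed at 0 in every library and 1 was above 0 in CMT only. Subunit genes that the naming rule did not find, among them those with other identifiers, were not analysed here.

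Medians of the other gene lists of the pathway lay nearer to 0 than that of the mitochondrially encoded members in CM versus IM. Of all mRNA genes tested, 8.38% were called higher and 10.4% lower for CM to IM. The shares were 9.53% and 9.97% for CMT to CM, and 8.81% and 11.9% for CMT to IM. They are the background for the calls in each of these lists. Assembly factors of the complexes, of which 21 were measured, had a median log2 ratio of 0.01 for CM to IM, −0.04 for CMT to CM and −0.03 for CMT to IM, with none called in the first and second comparison. In the third, TMEM126B, an assembly factor of complex I, was upregulated (133 UQRPKM (IM), 150 (CM) and 207 (CMT)) and NDUFAF5, another, was downregulated (50.1, 40.7 and 28.0). Chain proteins outside the naming rule, which pass electrons or steer ATP synthase, had medians of 0.06, −0.08 and 0.05 over 6 genes, and 1 was called. It was SQRDL, which feeds electrons from sulfide into ubiquinone, with 241, 216 and 344 and a log2 ratio of 0.67 in CMT versus CM. CYCS, cytochrome c, had 386, 418 and 479, and ATPIF1, an inhibitor of ATP synthase, had 3320, 3397 and 3295.

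Genes for the expression of mitochondrial DNA had medians of 0.05, 0.11 and 0.01 over 18 genes, with 0 called higher in the 3 comparisons and 2, 1 and 2 called lower, where 10.4%, 9.97% and 11.9% of all mRNA genes were called lower. TFB1M, which modifies 12S rRNA, had 112 UQRPKM (IM), 74.2 (CM) and 70.3 (CMT), and TOP1MT, the mitochondrial topoisomerase, had 7.69, 3.30 and 3.57 from 22, 9 and 10 reads. Both were downregulated in CM and in CMT against IM. PNPT1, which degrades mitochondrial RNA, had 19.3, 27.0 and 15.7 from 39, 52 and 31 reads and was downregulated in CMT versus CM at −0.79. TFAM and POLRMT, the main transcription factor and the RNA polymerase of mitochondria, were not found by symbol and were not analysed here.

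Among nuclear regulators of mitochondria, medians were −0.05, −0.18 and −0.19 over 13 genes. PPARA, a receptor that turns on fatty acid oxidation, was upregulated in CM, at 37.1 UQRPKM (IM), 79.4 (CM) and 58.7 (CMT). ESRRG, a nuclear receptor for oxidative genes, had 5.97, 11.4 and 5.69 and was upregulated in CM relative to IM and downregulated in CMT versus CM. GABPA, a factor that binds promoters of respiratory chain genes, was upregulated in CMT against both other libraries, at 15.2, 12.6 and 22.9 from 57, 45 and 84 reads. In CMT versus IM PPARA and SIRT1 were also upregulated, and PPRC1, PPARD and SIRT3 were downregulated. Of all mRNA genes, 8.81% were called higher and 11.9% lower in that comparison. These shares were 8.38% and 10.4% for CM to IM, and 9.53% and 9.97% for CMT to CM. ESRRA had 294, 291 and 257, and PPARGC1A and NRF1 were not found by symbol. The 17 citrate cycle enzymes had medians of −0.06, −0.06 and −0.14, and the only one called was citrate synthase (CS), at 1945, 2018 and 1334, with a log2 ratio of −0.60 in CMT versus CM.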

How the data were processed

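The authors filtered single-end Ion Proton reads of 3 libraries, mapped them to Sscrofa 10.2 with MapSplice and deposited RPKM values scaled by the upper quartile (UQRPKM). The counting tool, annotation, use of strand and treatment of multi-mapped reads are not given in the sources used here. Libraries were grouped by sample label.

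Whole reads were recovered from the deposited values for all 20838 genes above 0, with upper quartiles of 149, 142 and 146 for IM, CM and CMT. Since the shortest fitting gene length was taken, reads can be too low by a common factor: the length recovered for COX2 was 344 bases against 688 in RefSeq (Sscrofa11.1), which would raise the share of the mitochondrially encoded members to 5.41%, 8.25% and 6.43%. The length equalled that of RefSeq for 10 of the 13 genes. Recovery and calls were tested on simulated data.

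Ratios were log2 of UQRPKM without a pseudocount, with exact Clopper-Pearson 95% intervals from reads. A call needed a fold of 1.5 and 1 UQRPKM in both libraries. The background was all mRNA genes under the same filter. With 1 library per group, no test between conditions was possible, and the test of the study was not run. Alternatives changed the scaling, filter, pseudocount, fold and members. Python 3.11.15, pandas 2.3.3 and scipy 1.17.1 were used.

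The members and lists were chosen with earlier results of these data known. Named were the mitochondrially encoded members, called genes, the extremes of each complex in ratio or level, isoform families, SDH genes and members at 0, with a preset few of the other lists. NDUFS1, NDUFS7, NDUFS8, NDUFV1, NDUFA5, NDUFA12, NDUFB8, COX6B, COX7C and the rest of complex V were named after their values were seen. No sequences or coordinates are given because the gene table at hand describes another build. A gene that the rule would name is not reported here.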

Additional observations from a re-analysis of the deposited data

How the results depend on the processing

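No paired analysis was possible because each group is 1 library, and no replicate could be left out. Of 237 values under alternatives, 206 stayed within their counting interval or within 1.5 times the count, and 31 moved. For a median, that interval was the median of its members' lower and upper bounds, not an interval of the median itself. Filters on members above 0 and on at least 50 reads left the medians unchanged. The 206 therefore include settings that made no difference, and are no measure of robustness. Scaling by total reads on mRNA genes and centring on all mRNA genes gave median log2 ratios of 0.69 and 0.70 for the mitochondrially encoded members for CM to IM, −0.45 and −0.48 for CMT to CM, and 0.29 and 0.25 for CMT to IM. For nuclear-encoded members they gave 0.20 and 0.21 in complex IV in CM versus IM, 0.16 and 0.12 in complex II in CMT versus IM, 0.24 (total reads) in complex IV in CMT versus IM, and 4 called higher in CMT versus IM under each. Sums over members gave −0.47 and 0.14 for the mitochondrially encoded members for CMT to CM and CMT to IM, and turned the median of the nuclear-encoded members in CMT versus IM negative, at −0.017 over all complexes, −0.034 for complex I, −0.042 for complex II and −0.050 for complex V. Without ND6, ND4L, ATP6 and ATP8, which overlap other genes, the mitochondrial median in CM versus IM was 0.58. COX3, ND4 and ND5, which overlap genes left out, stayed in, so this setting is not free of shared reads. At a fold of 2, nuclear-encoded members called were 3 higher for CM to IM and 1 higher and 2 lower for CMT to CM. For CMT to IM they were 1 higher and 1 lower. Mitochondrially encoded members called at that fold were 1 higher for CM to IM, 0 lower for CMT to CM and 1 higher for CMT to IM. The share of all mRNA genes at a fold of 2 was not computed. The ratio of mitochondrially to nuclear-encoded level in IM, CM and CMT was 6.52, 9.42 and 7.42 from reads, 4.84, 6.69 and 5.31 without those 4 genes, and 26.4, 38.4 and 29.1 from medians, with CM highest each time over all members. Moving NDUFA4 and NDUFA4L2 to complex IV and leaving out the called members were added after seeing the data. In CM versus IM, the median of the nuclear-encoded members was 0.08 without called members, and that of complex I was also 0.08. With the move, the median in CM versus IM was 0.12 for complex I and 0.17 for complex IV. Depth limits members with few reads, such as ND6, ATP5J and NDUFA4L2, with at most 202 reads in a library.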

Other observations

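Transfer RNAs listed by amino acid were above 0 in at least 1 library for 17 of 18 names, with gene lengths that all occur among mitochondrial tRNAs in RefSeq. Some had very few reads, such as tRNA-Pro with 1 (IM), 1 (CM) and 2 (CMT). Their summed level was 7508 UQRPKM (IM), 13374 (CM) and 11751 (CMT), from 771, 1313 and 1193 reads. The log2 ratio of the sums was 0.83 for CM to IM, −0.19 for CMT to CM and 0.65 for CMT to IM. tRNA-Asp, which lies between COX1 and COX2 on mitochondrial DNA, had 3869, 6721 and 5328, and tRNA-Lys, between COX2 and ATP8, had 1202, 1944 and 1707. Both were highest in CM. tRNA-Leu had 725, 1587 and 2155 and was highest in CMT. tRNA-Phe was highest in IM, at 163, 121 and 58.7 from 17, 12 and 6 reads. Symbols do not separate the tRNA genes of mitochondrial DNA from nuclear ones of the same name, and a matching length does not show the origin either.

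White adipocyte markers summed to 173551 UQRPKM (IM), 165370 (CM) and 137300 (CMT), and 13 of 14 were lower in CMT compared with CM (median log2 ratio −0.44). In CM versus IM, 9 of these 14 were higher and 5 lower, with a median log2 ratio of 0.04. Macrophage markers summed to 9389, 8453 and 7823. Gene by gene, 8 of 12 macrophage markers were higher and 4 lower in CM than in IM, with a median log2 ratio of 0.14. Endothelial markers summed to 10049, 8688 and 9174, and T cell and NK cell markers to 777, 671 and 695. Mesothelial markers summed to 121, 205 and 495, with 4 of 5 called higher and 1 called lower in CMT versus CM. In that comparison 9.53% of all mRNA genes were called higher and 9.97% lower. Of the brown fat markers, COX7A1 made up nearly all of the sum of 2881, 2293 and 2737, DIO2 had 14.4, 6.71 and 11.4, and ELOVL3 and CIDEA were listed at 0. All 16 skeletal muscle markers tested were called higher in CMT versus CM, against the same 9.53% of all mRNA genes.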
